A study of Mus musculus with 7 samples.

Results

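Cholesterol synthesis and sterol handling were followed through 28 genes listed by symbol. They are 18 enzymes of the synthesis pathway, 4 regulators that sense sterol, and 6 genes of sterol uptake and trafficking. A probe set counted for a gene where the platform annotation named that gene alone, and where a gene had several, the brightest on average over the 7 arrays stood for it. By this rule 26 of the 28 genes were measured, among 18193 genes in all. Acat2, a thiolase at the entry of the pathway, and Soat2, an enzyme that esterifies cholesterol, were not analysed here. All 26 lay above the filter on low levels (log2 4.588), which left 13644 genes for testing.

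Each of 7 male C57BL6J mice gave a piece of terminal ileum, where the small intestine meets the large, at 8 weeks of age. Of these, 4 were given penicillin from birth at a low dose of 6.7 mg/L and 3 were controls without it. All 7 were weaned to chow at 4 weeks and switched at 6 weeks to food that drew 45% of its calories from fat. The labels describe the mice as biological replicates, 1 array each, and name neither litter nor cage, so a litter or cage difference cannot be told apart from penicillin. The question is which transcripts differ in the ileum of penicillin mice.

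Cells obtain cholesterol by making it from acetyl-CoA through mevalonate, squalene and lanosterol, or by taking it up. When sterol in the endoplasmic reticulum is low, SCAP escorts the transcription factor SREBP2 to the Golgi, where it is cut and released to switch on the synthesis genes, while the INSIG proteins hold SCAP back when sterol is plentiful. In the small intestine enterocytes also absorb dietary and biliary cholesterol through NPC1L1 at the brush border, so synthesis and uptake meet in the same epithelium.

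Values are log2 expression values, and levels are compared between mice for a gene, never between genes. Over the probe sets of the table pairs of arrays had correlations from 0.992 to 0.998, and precision is limited by how few arrays there are. Fabp6, a bile acid carrier that marks ileal enterocytes, lay between 14.28 and 14.64 in all 7 mice. The other ileal enterocyte markers varied more in part, with a range of 1.53 for Slc10a2, the bile acid importer, and of 2.47 for Fgf15, the bile acid signal of the ileum. Alb, a hepatocyte marker examined because the labels also mention livers, lay between 5.15 and 7.95. Control replicate 3 stood apart, so results that rest on it are given with and without it. Relative to each gene's mean over the 7 mice, its mean over the 8 brush border genes measured of 9 listed was -1.07, while the other mice lay between 0.049 and 0.55. Of 6 colon markers it was high for Car1, at 14.10, and for Aqp8, at 8.27, against 10.82 and 4.29 at most elsewhere, while Slc26a3, at 11.47, lay within the range of the other mice and Hoxb13, Hoxd10 and Hoxd13 lay under the filter on low levels in the mean. Summed levels also differed between the groups for the brush border and lymphocyte lists, while those of the other marker lists overlapped. The summed levels of the 8 brush border genes ran from 80.0 to 89.0 in control mice and from 89.3 to 92.9 in penicillin mice, and those of 4 lymphocyte genes from 27.1 to 27.8 and from 24.6 to 25.9, without overlap in either case. By gene, 4 of the 8 brush border genes were higher without overlap, where 4.29% of all genes were. Of the 3 lymphocyte genes above the filter, 2 were lower without overlap, where 6.05% of all genes were. On lists whose sums overlapped, 2 of 4 macrophage genes, Csf1r and C1qa, were also lower without overlap. Of 4 crypt stem cell genes, 1, Ascl2, was higher without overlap. In whole tissue, fewer cells of a type and less RNA per cell cannot be told apart.

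No member passed the test between penicillin and control mice. In limma, at a Benjamini-Hochberg adjusted p under 0.05 over all 13644 genes, 0 of the 26 members were called, where 0.0953% of all genes were. At an unadjusted p under 0.05 there was 1 member, Stard4, against 10.7% of all genes. The 17 synthesis enzymes had a median difference of 0.043 (penicillin minus control, log2), 12 above 0 and 5 below, beside a median of -0.014 over all genes tested, of which 45.3% lay above 0. The 4 regulators had a median of 0.0087 and the 5 uptake and trafficking genes one of 0.17. Without control replicate 3 these medians were -0.053, -0.071 and 0.028, beside -0.0041 over all genes, and 3 of the 17 enzymes lay above 0, where 48.3% of all genes did.

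**Figure D1:**
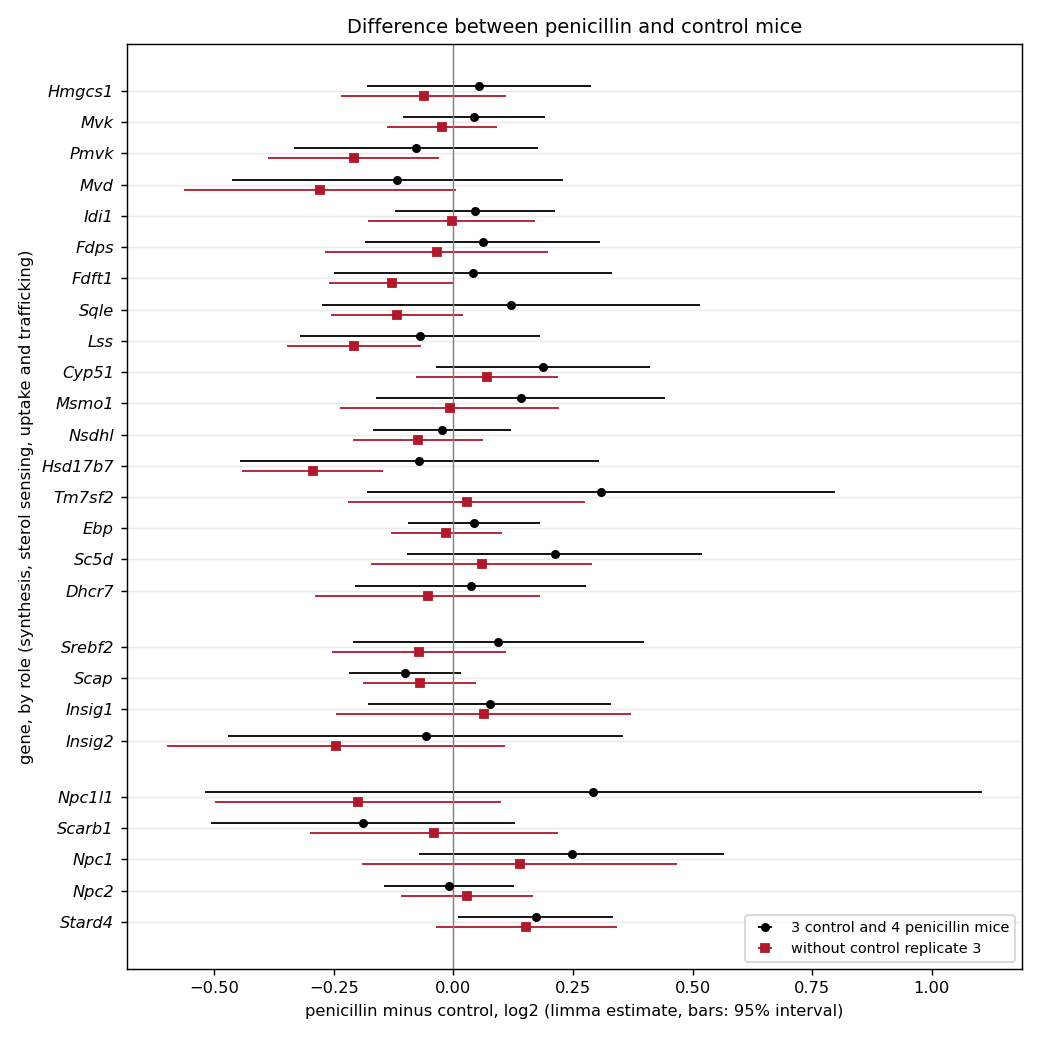
Difference between penicillin and control mice for each of the 26 genes (horizontal axis, log2, limma estimate with its 95% interval), with all 7 mice in black circles and without control replicate 3 in red squares. With 7 mice every interval but that of Stard4 spans 0, and without control replicate 3 most synthesis enzymes lie left of 0.

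The enzymes that turn acetyl-CoA into farnesyl units had differences between -0.12 and 0.061. Hmgcs1, the cytosolic HMG-CoA synthase that forms the substrate of the mevalonate branch, was at 13.02, 12.83 and 12.58 in control replicates 1 to 3 and at 12.87, 12.81, 12.84 and 12.94 in penicillin replicates 1 to 4. The penicillin values lay inside the range of the controls, and the difference was 0.053 ± 0.10 (SE, n = 3 and 4, limma adjusted p = 0.841). Pmvk, phosphomevalonate kinase, was at 9.09, 9.11 and 8.71 in control mice and at 8.79, 8.83, 8.93 and 9.01 in penicillin mice. Here control replicates 1 and 2 were above every penicillin mouse and control replicate 3 below all of them. Mvd, the decarboxylase that yields isopentenyl diphosphate, ranged from 8.04 to 8.67 in control mice and from 8.05 to 8.39 in penicillin mice and differed by -0.12 ± 0.15 (SE). Mvk, mevalonate kinase, Idi1, the isomerase of isopentenyl diphosphate, and Fdps, which builds farnesyl diphosphate, differed by 0.043, 0.045 and 0.061.

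Squalene and lanosterol are made by Fdft1, Sqle and Lss. Sqle, squalene epoxidase and a rate-limiting step of the pathway, was at 11.30, 11.29 and 10.58 in control mice and at 11.19, 11.09, 11.22 and 11.21 in penicillin mice. The penicillin mice formed a narrow band, with an SD of 0.061 (n = 4), between a high pair of controls and a low control replicate 3. The difference of Sqle was 0.12 ± 0.17 (SE, adjusted p = 0.783), with a 95% interval from -0.27 to 0.51. Fdft1, squalene synthase, had the same layout, at 11.74, 11.68 and 11.20 in control mice and between 11.54 and 11.65 in penicillin mice. Lss, lanosterol synthase, was at 8.94, 8.87 and 8.49 in control mice and between 8.64 and 8.75 in penicillin mice, and differed by -0.070 ± 0.11 (SE).

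Among the enzymes that convert lanosterol to cholesterol were the largest positive differences of the pathway. Tm7sf2, a sterol C14 reductase, was at 9.38, 9.50 and 8.59 in control mice and at 9.31, 9.36, 9.62 and 9.57 in penicillin mice. Its difference of 0.31 ± 0.21 (SE, 1.24-fold, adjusted p = 0.584) rested on control replicate 3 and was 0.028 ± 0.10 (SE) without it. Sc5d, the sterol C5 desaturase, was at 11.14, 11.14 and 10.69 in control mice and at 11.05, 11.14, 11.40 and 11.21 in penicillin mice. Control replicate 3 was again below all others and penicillin replicate 3 above them. Sc5d averaged 10.99 ± 0.26 in control mice and 11.20 ± 0.15 in penicillin mice (SD, n = 3 and 4), a difference of 0.21 ± 0.13 (SE, adjusted p = 0.564), or 0.059 without control replicate 3. Cyp51, the lanosterol demethylase, was at 10.94, 10.81 and 10.53 in control mice and at 10.90, 10.90, 10.97 and 11.00 in penicillin mice. Cyp51 differed by 0.19 ± 0.096 (SE, adjusted p = 0.516), or 0.071 without control replicate 3. The widest interval among the 17 enzymes was that of Tm7sf2, from -0.18 to 0.80, and the lowest bound was that of Mvd, at -0.46.

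The remaining enzymes of this stretch had differences between -0.071 and 0.14. Msmo1, the C4 methyl sterol oxidase, Ebp, the sterol isomerase, and Dhcr7, the reductase of the last step, differed by 0.14, 0.042 and 0.036. Nsdhl, the C4 decarboxylase that works with Msmo1, differed by -0.023. Hsd17b7, a ketosteroid reductase of the same complex, was at 9.77, 9.79 and 9.11 in control mice and at 9.46, 9.41, 9.50 and 9.58 in penicillin mice. As with Sqle, the penicillin mice lay between control replicate 3 and the other controls, and the difference was -0.071 ± 0.16 (SE, adjusted p = 0.871).

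The 17 synthesis enzymes measured shared 1 feature across mice: by the brightest probe set, control replicate 3 held the lowest of the 7 values for all 17. For Hmgcs1, Idi1, Fdft1, Lss, Msmo1 and Sc5d, a further probe set above the filter was lowest in another mouse. Over all genes tested control replicate 3 was the lowest for 21.6% and the highest for 30.3%. Among 16 further sterol genes given below it was the lowest for 6 and the highest for 6. Of these, Lbr was highest there, at 11.43, while Ggps1 was lowest in control replicate 2 and Aacs in penicillin replicate 2. Control replicate 1 was the highest for 8 of the 17 enzymes (12.1% of all genes), penicillin replicate 4 for 4 (10.2%), penicillin replicate 3 for 3 (15.8%) and control replicate 2 for 2 (14.4%). The mean of the enzymes, relative to each gene's mean over the 7 mice, was 0.15, 0.060 and -0.30 in control replicates 1 to 3 and -0.031, -0.041, 0.072 and 0.094 in penicillin replicates 1 to 4. The groups overlapped, and the widest gap between mice lay inside the control group. The SD between control mice exceeded that between penicillin mice for all 17 enzymes, with medians of 0.23 and 0.061, beside 64.4% of all genes. This rested on control replicate 3: between the other controls the SD was larger than in penicillin mice for 7 of the 17 enzymes and smaller for 10 (medians 0.056 and 0.061), beside 42.3% of all genes with the larger SD in controls.

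**Figure D2:**
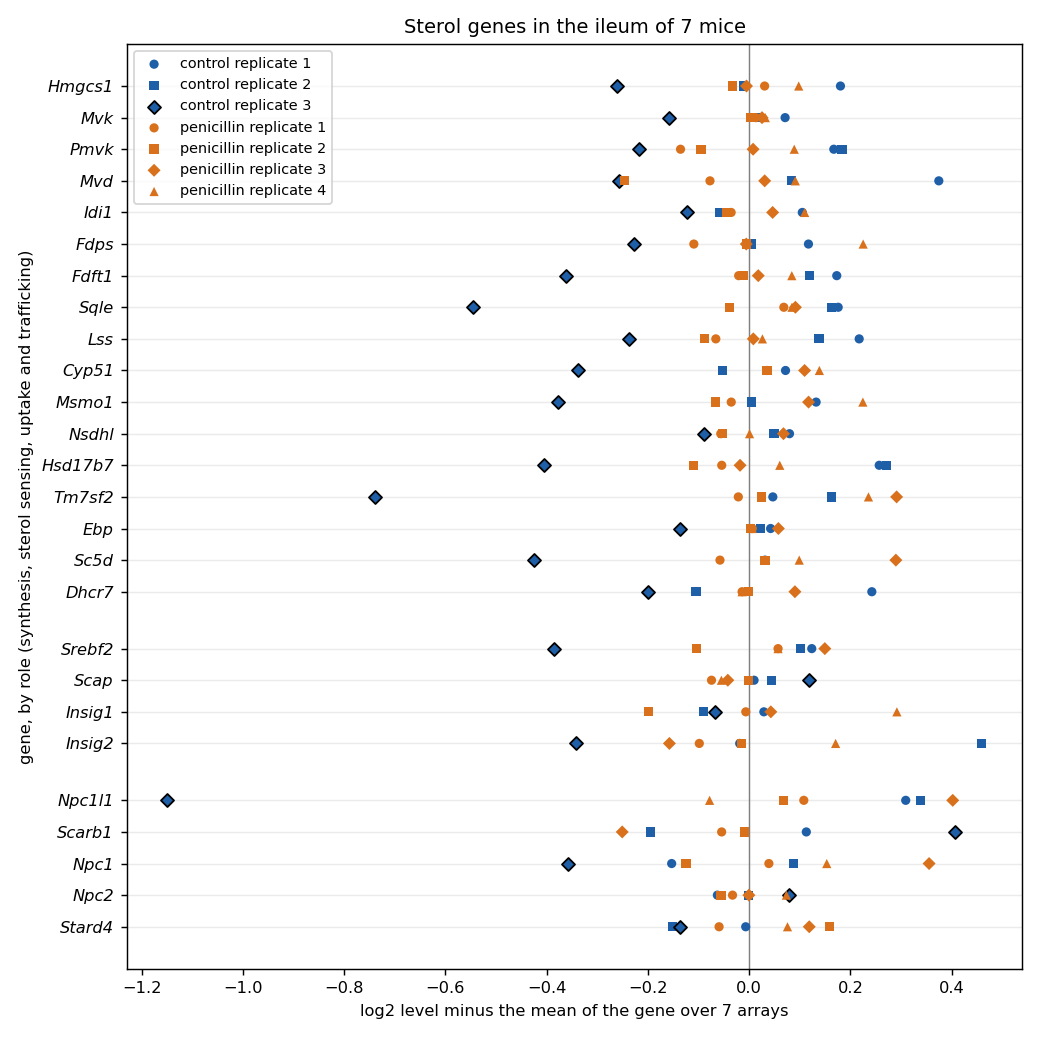
Level of each of the 26 genes in each mouse (horizontal axis, log2, relative to the gene's mean over 7 arrays), with control mice in blue and penicillin mice in orange. The outlined diamond, control replicate 3, is the leftmost point of all 17 synthesis enzymes in the upper block and of 4 of the 9 genes below.

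**Figure D3:**
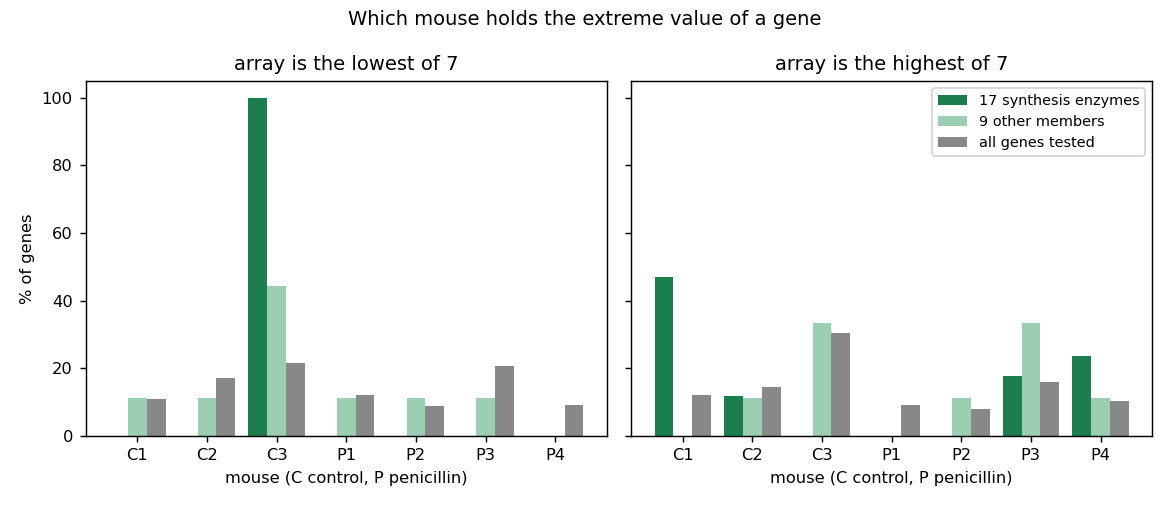
Percent of genes for which a mouse held the lowest (left) or the highest (right) of the 7 values, for the 17 synthesis enzymes, the 9 other members and all genes tested. Control replicate 3 was the lowest for 100% of the enzymes, 44.4% of the other members and 21.6% of all genes.

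The same mouse was the lowest for all 8 brush border genes measured and for 4 of 5 ileal enterocyte markers, and the highest for all 5 proliferation markers measured of 6 and for all 3 adipocyte markers measured of 5. Its mean over the ileal enterocyte markers was -0.48, against -0.10 to 0.28 in the other mice. Slc10a2, at 9.91 in that mouse, was higher in every penicillin mouse than in every control, as 4.29% of all genes were. Its difference was 0.82 (limma adjusted p = 0.308). Fgf15, on the same list, went the other way, by -1.14 (limma adjusted p = 0.508), or -1.71 without that mouse (limma adjusted p = 0.297). With all 7 mice the groups overlapped for Fgf15, Fabp6, Vil1 and Epcam. The mean of control replicate 3 over the proliferation markers was 0.35, against -0.19 to 0.014 in the other mice, and its mean over the adipocyte markers was 1.14, against -0.73 to 0.44. Their part in the low enzyme values of that mouse was not tested. The sums over the 5 proliferation markers ranged from 52.0 to 53.9 in control mice and from 51.3 to 52.3 in penicillin mice, and those over the 3 adipocyte markers from 25.1 to 30.4 and from 24.8 to 28.3. These values have no true zero, so no marker can be called absent. The summed brush border and lymphocyte levels did not overlap with all 7 mice, so leaving out control replicate 3 could not make them overlap. Without control replicate 3, 5 of the 8 brush border genes lay higher and 3 lower in penicillin mice. The part of these lists in the differences of the members was not tested.

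**Figure D4:**
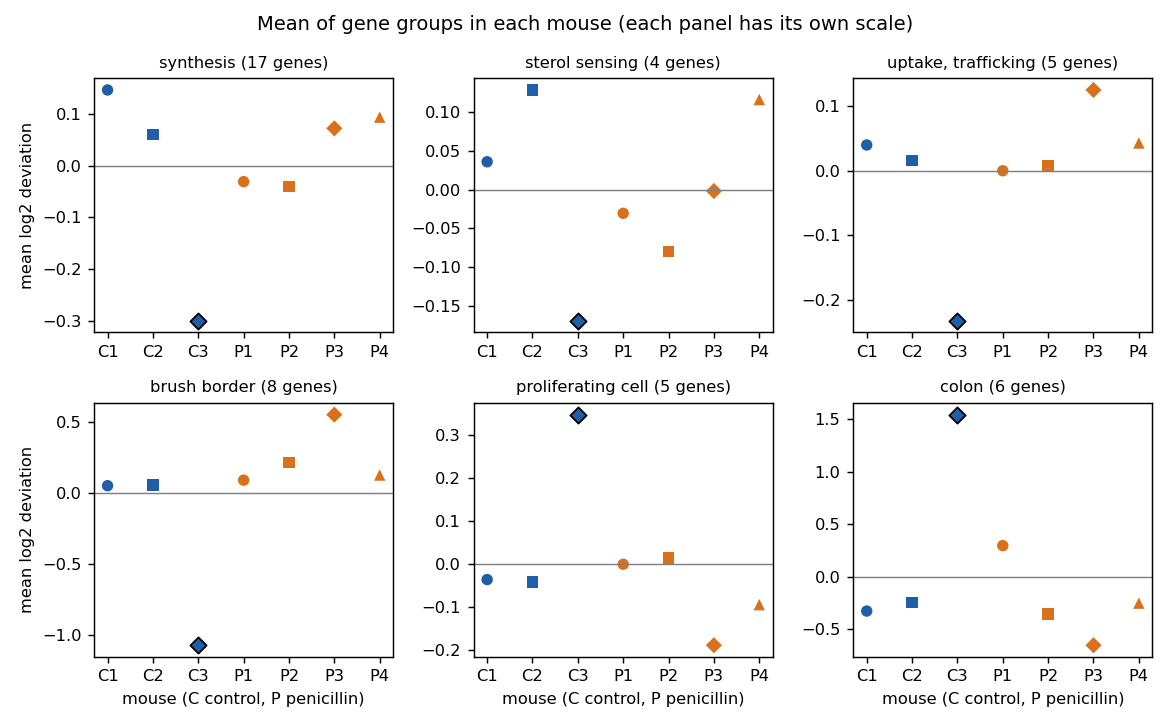
Mean of 6 gene groups in each mouse (vertical axis, log2, relative to each gene's mean over 7 arrays), with each panel on its own scale. Control replicate 3 (C3, outlined) is the lowest mouse for the synthesis, sterol sensing, uptake and brush border groups and the highest for the proliferation and colon groups.

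Without control replicate 3, 14 of the 17 enzymes lay lower in penicillin mice, where 51.7% of all genes did. None passed in limma, where 0.0586% of all genes did, while 3 had an unadjusted p under 0.05, all lower, against 6.28% of all genes. These were Hsd17b7, Lss and Pmvk, at -0.29 ± 0.062, -0.21 ± 0.059 and -0.21 ± 0.075 (SE, limma adjusted p = 0.177, 0.282 and 0.391). The 4 penicillin values lay below the 2 controls left for 5 enzymes, Pmvk, Fdft1, Sqle, Lss and Hsd17b7, and for Scap among the other members, a layout that 11.2% of all genes had in that direction. For Fdft1 and Lss this is the layout of the brightest probe set, and their probe sets disagreed in sign, as given below. For Hsd17b7 the other probe sets above the filter gave smaller differences, -0.067 with overlapping groups and -0.084 without overlap. Every one of these values rests on 2 control mice. Without control replicate 1 instead, 16 of the 17 enzymes lay higher in penicillin mice, where 45.7% of all genes did. Their median difference was then 0.14. The direction of the enzymes as a group depends on which control mice are counted.

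Promoters are shown because SREBP2 and its partner NF-Y are known to act on synthesis genes. Any part of the promoter sequences in the levels of these mice was not tested. RefSeq windows (build GRCm38.p6) were at hand for 21 of the 28 genes. The letters searched, on both strands of the 250 bases before the gene start, were CACNCCAC and CACCNCAC, which resemble the core of a sterol regulatory element and overlap where both read CACCCCAC, CCAAT, the NF-Y box, and GGGCGG, a GC box. CCAAT was in 14 of 15 synthesis promoters, in 3 of 4 regulators and in both uptake and trafficking genes with a window. Of all promoter windows 33.8% held it, and 37.5% of all genes held it in at least 1 window. GGGCGG was in 14 of the 15, against 32.7% of windows. A sterol regulatory element-like core was in 3 of the 15, Acat2, Hmgcs1 and Hsd17b7, and in 1 regulator, Insig1, against 7.84% of windows. Mvk is shown for its 5 CCAAT boxes, the most among the members, and Npc1l1 as the uptake gene. Capitals mark the cores and the CCAAT boxes, which read ATTGG on the other strand.
Hmgcs1, chr13:119690101-119690350, plus strand: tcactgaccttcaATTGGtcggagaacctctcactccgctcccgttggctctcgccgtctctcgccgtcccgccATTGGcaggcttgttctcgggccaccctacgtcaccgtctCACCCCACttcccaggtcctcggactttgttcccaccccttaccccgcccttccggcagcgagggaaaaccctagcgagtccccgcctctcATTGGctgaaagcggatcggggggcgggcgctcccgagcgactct
Hsd17b7, chr1:169969206-169969455, minus strand: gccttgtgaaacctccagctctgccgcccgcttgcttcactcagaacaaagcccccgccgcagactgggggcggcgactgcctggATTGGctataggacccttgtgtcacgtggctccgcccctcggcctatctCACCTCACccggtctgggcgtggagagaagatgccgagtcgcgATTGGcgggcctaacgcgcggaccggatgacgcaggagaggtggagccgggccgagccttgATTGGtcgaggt
Insig1, chr5:28071162-28071411, plus strand: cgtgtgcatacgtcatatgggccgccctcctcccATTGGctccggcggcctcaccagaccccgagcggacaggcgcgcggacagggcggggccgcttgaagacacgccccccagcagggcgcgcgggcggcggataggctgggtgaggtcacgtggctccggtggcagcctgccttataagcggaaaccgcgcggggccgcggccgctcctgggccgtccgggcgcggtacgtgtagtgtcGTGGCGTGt
Mvk, chr5:114444019-114444268, plus strand: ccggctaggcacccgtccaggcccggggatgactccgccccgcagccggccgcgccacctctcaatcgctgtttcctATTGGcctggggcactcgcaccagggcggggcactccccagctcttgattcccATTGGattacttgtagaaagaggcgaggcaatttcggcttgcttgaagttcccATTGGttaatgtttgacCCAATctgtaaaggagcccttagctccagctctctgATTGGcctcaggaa
Npc1l1, chr11:6230246-6230495, minus strand: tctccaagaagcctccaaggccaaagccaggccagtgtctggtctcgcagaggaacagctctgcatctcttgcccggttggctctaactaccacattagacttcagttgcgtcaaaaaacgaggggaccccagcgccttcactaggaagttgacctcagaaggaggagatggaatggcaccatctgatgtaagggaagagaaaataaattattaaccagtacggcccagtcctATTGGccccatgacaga

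In Hmgcs1 the core CACCCCAC lay at -136 to -129 from the gene start, and in Hsd17b7 the core CACCTCAC lay at -116 to -109. In Insig1 the core was on the other strand, as GTGGCGTG at -9 to -2. The 5 boxes of Mvk began at -173, -120, -67, -50 and -14, and the single box of Npc1l1 began at -17. Such matches are descriptions of the letters and not binding sites.

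Among the 4 sterol sensing genes, control replicate 3 was the lowest mouse for Srebf2 and Insig2. Srebf2, which encodes SREBP2, was at 9.45, 9.43 and 8.94 in control mice and at 9.38, 9.22, 9.48 and 9.38 in penicillin mice. Control replicate 3 lay below a narrow band of the other 6 mice, and the difference was 0.094 ± 0.13 (SE, adjusted p = 0.781), or -0.073 without that mouse. Insig1, itself a target of SREBP2 and a brake on it, was at 9.63, 9.51 and 9.53 in control mice and at 9.59, 9.40, 9.64 and 9.89 in penicillin mice. Both the lowest and the highest value of Insig1 were in the penicillin group, and the difference was 0.075 ± 0.11 (SE, adjusted p = 0.788). Insig2, the second INSIG gene, ranged from 9.63 to 10.43 in control mice and from 9.81 to 10.14 in penicillin mice.

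Scap, the escort of SREBP2, was the 1 member whose groups did not overlap. It was at 9.35, 9.39 and 9.46 in control mice and at 9.27, 9.34, 9.30 and 9.29 in penicillin mice. The gap between the groups was a small fraction of a log2 unit, and the difference was -0.10 ± 0.051 (SE, 0.933-fold, adjusted p = 0.508). Of all genes 10.3% had groups without overlap, 6.05% with lower penicillin values. Its other probe set above the filter, at a mean of 4.69 near the bottom of the scale, differed by -0.054 with overlapping groups.

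Npc1l1, the cholesterol importer of enterocytes, had the widest range over the 7 mice among the members, 1.55 on the log2 scale, followed by Tm7sf2 with 1.03. It was at 11.72, 11.75 and 10.26 in control mice and at 11.52, 11.48, 11.81 and 11.33 in penicillin mice. Control replicate 3 was far below the remaining 6 mice, which lay between 11.33 and 11.81. The difference of Npc1l1 was 0.29 ± 0.35 (SE, adjusted p = 0.745, 95% interval -0.52 to 1.10), and without that mouse it turned to -0.20 ± 0.13 (SE, adjusted p = 0.606). Scarb1, a receptor for high-density lipoprotein, had its highest value in control replicate 3. It was at 7.0, 6.69 and 7.29 in control mice and at 6.83, 6.88, 6.64 and 6.88 in penicillin mice, a difference of -0.19 ± 0.14 (SE, adjusted p = 0.598), or -0.040 without control replicate 3.

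Npc1 and Npc2 move cholesterol out of lysosomes. Npc1, the membrane protein of the pair, was at 7.71, 7.95 and 7.50 in control mice and at 7.90, 7.74, 8.22 and 8.01 in penicillin mice. The groups overlapped, and the difference was 0.25 ± 0.14 (SE, adjusted p = 0.530), or 0.14 without control replicate 3. Npc2, the soluble protein, differed by -0.0089 ± 0.058 (SE), and all 7 values lay between 12.08 and 12.23. Its 95% interval, from -0.14 to 0.13, was the narrowest of the uptake and trafficking genes.

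Stard4, a soluble carrier that moves cholesterol between membranes and is itself a target of SREBP2, was the 1 member with an unadjusted p under 0.05, a call that 9 of 16 alternatives did not keep. In its brightest probe set it was at 11.36, 11.22 and 11.23 in control mice and at 11.31, 11.53, 11.49 and 11.44 in penicillin mice. Only penicillin replicate 1 lay inside the control range. The difference was 0.17 ± 0.070 (SE, 1.13-fold, unadjusted p = 0.0412, adjusted p = 0.451), or 0.15 ± 0.079 (SE, unadjusted p = 0.0974, adjusted p = 0.545) without control replicate 3. The unadjusted limma p of Stard4 was also above 0.05 without control replicate 2 (0.115) and without penicillin replicate 2 (0.102), 3 (0.0892) or 4 (0.0760), while the difference stayed above 0 in all 16 alternatives. The other probe sets of Stard4, at means of 11.15 and 10.56, differed by 0.23 and 0.33, and in both of them every penicillin mouse was above every control mouse. These probe sets read the same 7 RNA samples and are no further replicates, and 4.29% of all genes had higher penicillin values without overlap.

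**Figure D5:**
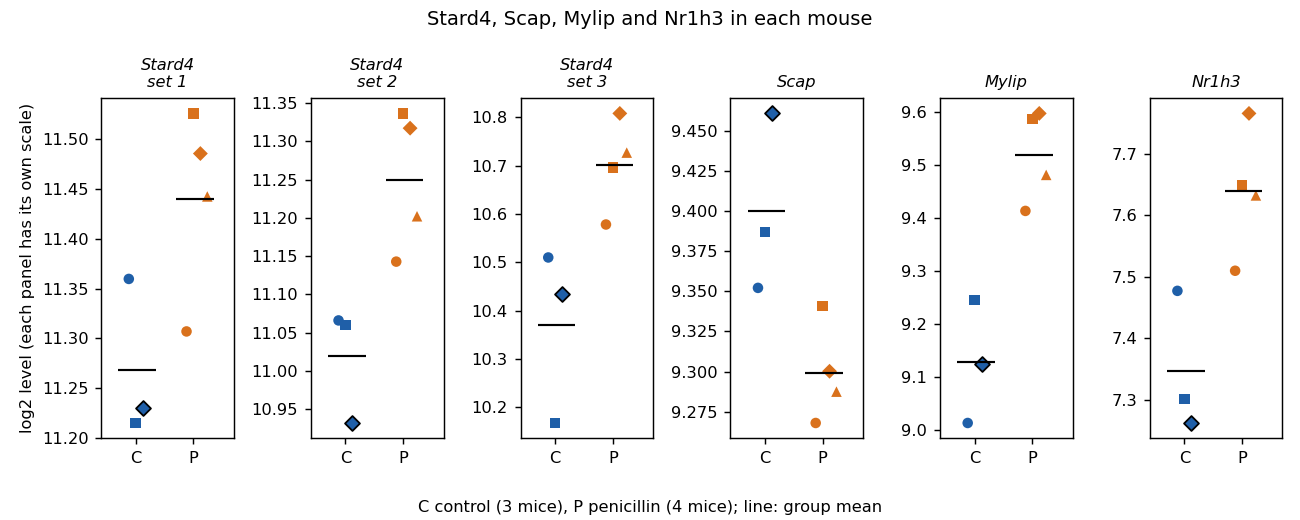
Level (vertical axis, log2, each panel on its own scale) of the 3 Stard4 probe sets, Scap, Mylip and Nr1h3 in 3 control (C, blue) and 4 penicillin mice (P, orange), with the group mean as a line. Penicillin mice lie above all controls for Stard4 sets 2 and 3, Mylip and Nr1h3 and below all controls for Scap, and none of these genes passed the adjusted test.

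Synthesis was set against uptake and trafficking by their medians. The median difference of the 17 enzymes was 0.13 below that of the 5 uptake and trafficking genes (-0.13). This contrast ranged from -0.17 to -0.080 when each mouse in turn was left out. The median of the 5 genes is the value of 1 gene, Stard4 (0.17), or Npc2 (0.028) without control replicate 3. By group means, the enzymes were at -0.031 in control and 0.023 in penicillin mice, and the 5 genes at -0.059 and 0.044. The mean of the 5 genes was between 0.00011 and 0.13 in penicillin mice and at 0.040, 0.016 and -0.23 in control mice, so control replicate 3 was the lowest mouse for both groups of genes. The uptake and trafficking genes did not order the mice alike, since control replicate 3 was the lowest for Npc1l1 and Npc1 and the highest for Scarb1 and Npc2.

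Different probe sets of a member mostly gave the same picture. The 26 genes had 58 probe sets, 54 of them above the filter, and control replicate 3 was the lowest array in 36 of the 54. Of 16 members with more than 1 probe set above the filter, 12 had differences of a single sign. In the 4 others, Hmgcs1, Lss, Msmo1 and Hsd17b7, probe sets disagreed. For Hmgcs1 and Msmo1 a probe set at a mean of 6.04 and of 5.28 gave -0.40 and -0.39, opposite to the brighter ones. For Lss the brightest probe set gave -0.070 and the others, at means of 6.25 and 4.71, gave 0.0017 and 0.12. Without control replicate 3 the Lss probe sets gave -0.21, 0.024 and 0.19, so its lower value there is that of a single probe set. Hsd17b7 gave -0.071 by its brightest probe set and 0.11 by each of its other 2 above the filter, and -0.29, -0.067 and -0.084 without control replicate 3. Without that mouse, signs disagreed between probe sets above the filter for Hmgcs1, Mvk, Idi1, Fdft1, Lss, Scarb1 and Npc2. Those of Fdft1 then gave -0.13 by the brightest and -0.016 and 0.39 by the others.

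Of 22 further genes of sterol synthesis, sensing, transport and export, 16 were measured, and 0 passed in limma in either direction. The summed levels of the 16 ran from 144.5 to 145.6 in control mice and from 145.9 to 146.5 in penicillin mice, without overlap. Their median difference was 0.0073, 9 above 0 and 7 below. At an unadjusted p under 0.05 there were 2, both higher, against 4.37% of all genes in that direction. Mylip, a ubiquitin ligase that marks lipoprotein receptors for degradation, was at 9.01, 9.25 and 9.12 in control mice and at 9.41, 9.59, 9.60 and 9.48 in penicillin mice. Every penicillin mouse was above every control, and the difference was 0.39 ± 0.076 (SE, 1.31-fold, adjusted p = 0.152), or 0.39 without control replicate 3 (adjusted p = 0.199). Nr1h3, which encodes liver X receptor alpha, a nuclear receptor for oxidised sterols, was at 7.48, 7.30 and 7.26 in control mice and at 7.51, 7.65, 7.77 and 7.63 in penicillin mice. Its groups did not overlap either, and 4.29% of all genes had higher penicillin values without overlap. The difference of Nr1h3 was 0.29 ± 0.080 (SE, 1.22-fold, adjusted p = 0.308), or 0.25 without control replicate 3 (adjusted p = 0.375). Srebf1, also on the list, differed by -0.023. Among the sterol transporters on the list, named after their values were seen, Abca1 and Abcg1, which export cholesterol from cells, differed by -0.26 and -0.048, and Abcg5 and Abcg8, which return sterol to the gut lumen, by 0.14 and 0.26. Without control replicate 3 the 4 differences were -0.12, 0.0024, -0.20 and 0.046, so those of Abcg1 and Abcg5 turned.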

How the data were processed

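Total RNA of 7 ilea was labelled with biotin and hybridised to Affymetrix arrays, per the labels' protocols. The table deposited by the authors gives log2 expression for each probe set, from RMA in affy, per the submitters' processing notes, with versions and a genome build not given in the sources used here. RMA equalises the arrays' distributions, so a shift common to all genes would be hidden, and it gives no detection call.

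Of 45101 probe sets, 34958 had 1 gene in the platform annotation of 2016, 932 had several and 9211 had none listed. The 34945 used stood for 18193 genes, with symbols updated through RefSeq gene IDs, and genes at or under the 25th percentile of mean level were left out. Penicillin and control were tested against each other in R 4.3.3 by limma 3.58.1 (lmFit and eBayes without trend, two-sided, Benjamini-Hochberg over 13644 genes). Intervals are 95% and SEs are moderated. The fit was tested on simulated data.

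The members, lists and motifs were chosen with earlier results of these data known, so lists carry counts and medians and no test. All members are named; those with full values follow a rule on rank of difference, p or overlap, and Sqle, Hsd17b7, Pmvk, Fdft1, Lss and Hmgcs1 were added after their values were seen. Alternatives were other normalizations, filters, probe set rules, variance models, array weights, a replicate block and leaving mice out. Python 3.11.15 with matplotlib 3.10.9 drew the figures. Promoter windows come from RefSeq and were searched over the 250 bases before the gene start.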

Additional observations from a re-analysis of the deposited data

Results flagged for a closer look

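A mouse far from the other 3 of the penicillin group was found for 4 of 45 genes and group means examined with Dixon's test (0.829 is the 95% value for 4 samples), which chance does for about 5% of groups. Control mice number 3 and were not examined in this way. Penicillin replicate 3 was high for Ebp (10.80 against 10.74 to 10.75, gap over range 0.925) and for Dhcr7 (8.97 against 8.87 to 8.88, 0.873). The same mouse was low for Abcg1, a sterol exporter (6.87 against 7.01 at most, 0.891). Penicillin replicate 4 was low for Ggps1, which makes geranylgeranyl diphosphate (8.17 against 8.24 to 8.25, 0.878).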

How the results depend on the processing

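No member passed in limma under any of the 16 alternatives. Of 416 values of single members, 360 kept the direction and 56 turned it, with 5 members (Pmvk, Cyp51, Scap, Npc1 and Stard4) keeping it in all. Without control replicate 3 the direction turned for 12 members. With 1 mouse left out, the log2 difference of members that turned ranged as follows: Hmgcs1 from -0.062 to 0.16, Mvk from -0.024 to 0.091, Mvd from -0.28 to 0.036, Idi1 from -0.0037 to 0.11, Fdps from -0.035 to 0.14, Fdft1 from -0.13 to 0.14, Sqle from -0.12 to 0.24, Lss from -0.21 to 0.019, Msmo1 from -0.0080 to 0.25, Nsdhl from -0.074 to 0.0098, Hsd17b7 from -0.29 to 0.044, Ebp from -0.014 to 0.075, Dhcr7 from -0.053 to 0.17, Srebf2 from -0.073 to 0.18, Insig1 from -0.011 to 0.15, Insig2 from -0.25 to 0.16, Npc1l1 from -0.20 to 0.55, Npc2 from -0.043 to 0.028. The medians then ranged from -0.053 to 0.14 for synthesis, from 0.028 to 0.22 for uptake and trafficking and from -0.071 to 0.10 for regulators. With control replicate 3 and penicillin replicate 3 both left out, differences turned to Hmgcs1 -0.053, Mvk -0.026, Idi1 -0.013, Fdps -0.024, Fdft1 -0.13, Sqle -0.13, Msmo1 -0.027, Tm7sf2 -0.025, Ebp -0.028, Sc5d -0.0071, Dhcr7 -0.078, Srebf2 -0.11, Npc1l1 -0.29, Scarb1 0.016, Npc2 0.027, and the uptake and trafficking median was 0.027. With array quality weights they turned to Hmgcs1 -0.13, Mvk -0.040, Idi1 -0.075, Fdps -0.068, Fdft1 -0.13, Sqle -0.11, Msmo1 -0.065, Ebp -0.020, Dhcr7 -0.18, Srebf2 -0.094, Insig1 -0.028, Npc1l1 -0.15, Npc2 0.036, and that median was 0.036. The synthesis median was then -0.093, with 14 of 17 enzymes lower and 5 members lower at an unadjusted p under 0.05. With the mean of a gene's probe sets they turned to Lss 0.019, Msmo1 -0.13, Hsd17b7 0.024, and that median was 0.24. The labels do not say that replicate numbers pair mice. Of 3 control arrays, 0 correlated best with the penicillin array of their number (r of deviations -0.16, 0.0030 and -0.42). With 3 pairs, and control replicate 3 standing apart, this cannot exclude a pairing by number. With the number as a block, which leaves penicillin replicate 4 without a partner, differences turned to Fdps -0.0052, Insig1 -0.011. Over all genes 12 were lower and 1 was higher, against 7 and 0 with averaged probe sets, 488 and 286 with array weights, 0 and 0 with the replicate block (509 and 294 at an unadjusted p under 0.05), 2 and 0 with both mice left out, and 0 to 14 and 0 to 1 with 1 mouse left out. The cause of these changes was not tested.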
